A study of Mus musculus with 10 samples.

Results

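The cells of the blood vessel wall and the red cells inside the vessels were followed through 47 genes in bulk cortex of an Alzheimer's disease mouse model. The 47 were taken by name as a list of known markers, of which 28 are expressed by endothelial cells, 7 by mural cells, 7 encode vessel matrix or are fibroblast genes, and 5 belong to red cells. The list was chosen with earlier results of these data known. The deposited counts hold 53700 gene identifiers, and 19268 genes had more than 10 reads over the 10 libraries, as did each of the 47.

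The mice were females aged 4 months that carried the 5XFAD transgenes, which are expressed in neurons and lead to amyloid plaques. In 5 of them, named 5XFAD;Neu cKO and given in the labels as Idol with Camk2a-cre cKO, the floxed Idol gene (Mylip, a ubiquitin ligase that sends lipoprotein receptors to degradation) was to be deleted by Cre under the Camk2a promoter, which is active in excitatory forebrain neurons. The other 5, given as WT on the same line and named 5XFAD, were the controls, and the sources used here do not say whether they carried floxed alleles or Cre. The deletion was thus aimed at neurons and not at vessel or blood cells, and the comparison asks how vessel and red cell transcripts of the cortex differed when the neurons were the cells meant to lose Idol. Animals were perfused with cold saline before the brain was taken, a step that rinses most blood from the vessels.

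Endothelial cells line brain capillaries and form the blood-brain barrier: they seal the gaps between them with tight junctions, carry glucose and amino acids inward through transporters and pump drugs and other lipophilic molecules back to the blood. Mural cells, which are pericytes on capillaries and smooth muscle cells on arterioles, wrap around them on a shared basement membrane. Mature red cells of mammals have no nucleus, but young ones still hold globin mRNA left from the bone marrow, and the globin proteins are made as alpha and beta chains that join into hemoglobin. In bulk tissue, fewer cells of a type and less RNA per cell cannot be told apart. Nor do the counts tell which cells the reads of a gene came from, those of the globins included.

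Libraries held 4320504 to 7466192 reads on genes in the 5XFAD group and 5148499 to 7246659 in the 5XFAD;Neu cKO group. QuantSeq 3′ sequencing reads a short piece near the end of each transcript, so levels are given as CPM (read counts over the library total, times 1000000) scaled by TMM library sizes, and are compared between libraries and not between genes. Mylip measured 11.2 ± 2.27 CPM in 5XFAD and 14.8 ± 4.90 CPM in 5XFAD;Neu cKO libraries (mean ± SD, n = 5 each; log2 fold change 0.39, edgeR adjusted p = 0.777). The targeted gene therefore did not separate the groups in these counts. Whether its reads lie in the deleted part is not given in the sources used here, and cells other than excitatory neurons keep the gene, so this is no check of the labels in either direction. For this reason the groups are called the libraries labelled 5XFAD and those labelled 5XFAD;Neu cKO, in short the 5XFAD-labelled and cKO-labelled libraries. Each library came from the cortex of 1 mouse, so p-values measure the spread between animals. Mitochondrial reads made up 20.9% to 25.1% of the counted reads in 5XFAD-labelled libraries and 20.2% to 24.7% in cKO-labelled libraries.

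The largest differences among the members lay in the red cell genes, so the sequences of the 4 adult globin genes are given first. The alpha genes lie on chromosome 11, Hba-a1 at chr11:32233186-32234504 and Hba-a2 at chr11:32246168-32247320, both on the plus strand of GRCm39. The beta genes lie on chromosome 7, Hbb-bs at chr7:103475730-103482989 and Hbb-bt at chr7:103461727-103465047, both on the minus strand. The interval of Hbb-bs overlaps Hbb-bh3 on the same strand and Gm15115 on the other. The 150 bases before the RefSeq start of each gene are shown because all 4 had a higher mean in the same group. Sequences are RefSeq's, placed on GRCm39 by exact match, in lower case, with matches on either strand to the CACCC box, the CCAAT box and the TATAA box in capitals. All 4 windows lie within the gene intervals of the newer GENCODE annotation, some of whose transcripts begin farther upstream.
Hba-a1, chr11:32233522-32233671, plus strand: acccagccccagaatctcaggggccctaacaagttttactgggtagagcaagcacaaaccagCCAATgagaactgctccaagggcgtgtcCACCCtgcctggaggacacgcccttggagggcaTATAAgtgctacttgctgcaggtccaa
Hbb-bs, chr7:103477136-103477285, minus strand: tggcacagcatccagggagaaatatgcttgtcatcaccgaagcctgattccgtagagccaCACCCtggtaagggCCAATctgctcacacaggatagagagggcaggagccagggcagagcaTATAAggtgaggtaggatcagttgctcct
Hbb-bt, chr7:103463131-103463280, minus strand: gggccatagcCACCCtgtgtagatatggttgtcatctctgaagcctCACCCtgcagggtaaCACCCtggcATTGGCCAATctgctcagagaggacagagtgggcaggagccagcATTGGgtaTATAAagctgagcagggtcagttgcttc
The entry of Hba-a2 is not printed, because its window at chr11:32246342-32246491 is that of Hba-a1 moved by 3 bases. RefSeq gives 300 bases around each start (250 before and 50 after). For both Hba-a1 and Hba-a2 they matched chromosome 11 exactly at 2 places, once at each alpha gene. The place given for each is the match at that gene. TATAA stood 27 to 30 bases before the start in all 4 genes. The CCAAT box, the CACCC box and the GATAA motif, which the red cell precursor factor GATA1 can bind, were each found in the 250 bases before the start in all 4, the last of them 182 to 209 bases away and so outside the letters shown. In Hbb-bt, CCAAT also stood beside its reverse complement ATTGG, and a second TATAA was found. Among 32851 mouse promoters of the same length, 22.6% held GATAA, 52.0% CACCC, 33.8% CCAAT and 22.8% TATAA on either strand, and 0.968% held all 4 motifs. These matches are letters in a window and not measured sites.

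Paralogs with near-identical transcripts matter for what a 76-base read can tell. In each pair the coding sequences differed at 1 base, which did not change the protein. The last difference in the coding sequence of each pair, in capitals below, lies in exon 3, and positions count from 1 at the first coding base.
Hba-a1, chr11:32234313-32234372: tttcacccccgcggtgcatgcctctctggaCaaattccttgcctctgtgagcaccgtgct
Hba-a2, chr11:32247130-32247189: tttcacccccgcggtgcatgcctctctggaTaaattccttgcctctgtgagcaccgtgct
Hbb-bs, chr7:103475872-103475929: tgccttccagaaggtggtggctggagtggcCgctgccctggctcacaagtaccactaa
Hbb-bt, chr7:103461863-103461920: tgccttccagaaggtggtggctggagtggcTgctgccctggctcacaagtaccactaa
The substitution from Hba-a1 to Hba-a2 is C381T in 429 coding bases, and that from Hbb-bs to Hbb-bt is C417T in 444. Past the stop codon the alpha transcripts were identical over all 90 bases of the shorter Hba-a2 model, while 95 of 133 bases matched in the beta pair. Of the 76-base windows in the last 400 bases, 30.5% of those of Hba-a1 and 23.4% of those of Hba-a2 did not occur in the other alpha gene, and 49.5% did not occur in the other beta gene. Reads with several places were kept in a summary row and given to no gene, so each globin count holds only the reads that the alignment could place. The split between the alpha genes rests on 1 coding base and on transcript ends that the annotation draws differently, and is uncertain, and the sums of each pair are given beside the single genes.

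Globin reads were more abundant in the cKO-labelled libraries. Together the 4 genes took 23 to 265 reads per 5XFAD-labelled library and 293 to 1116 per cKO-labelled library. On the summed CPM scale these were 51.4, 5.40, 31.8, 22.7 and 10.1 in 5XFAD-labelled replicates 1 to 5, and 208.6, 53.9, 46.3, 70.5 and 86.6 in cKO-labelled replicates 1 to 5. Replicate 1 of the 5XFAD-labelled libraries lay above replicate 3 of the cKO-labelled libraries, so the groups overlapped in 1 pair of libraries, and cKO-labelled replicate 1 stood far above the rest. Without TMM scaling, that is in plain CPM of the reads on genes, the highest 5XFAD-labelled value was 48.65 and the lowest cKO-labelled value 48.71.

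Hba-a1, which encodes an alpha chain, was at 10.7, 0.939, 7.47, 2.05 and 0.898 CPM in the 5XFAD-labelled libraries and at 32.7, 10.85, 14.1, 26.4 and 19.0 CPM in the cKO-labelled libraries. The groups did not overlap, though the nearest libraries, 5XFAD-labelled replicate 1 and cKO-labelled replicate 2, nearly touched. The fitted difference was 4.48-fold (log2 fold change 2.16 ± 0.36 SE, edgeR adjusted p = 0.000302, exact permutation p = 0.00794, the smallest that 5 against 5 libraries allow, n = 5 per group). Hba-a2 was at 4.85, 0, 5.16, 2.05 and 0.224 CPM in the 5XFAD-labelled libraries and at 29.7, 3.86, 4.33, 0.505 and 12.1 CPM in the cKO-labelled libraries. Only replicates 1 and 5 of the latter exceeded all 5XFAD-labelled libraries, and the difference did not pass (log2 fold change 1.95 ± 0.55 SE, edgeR adjusted p = 0.171, exact permutation p = 0.175).

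Hbb-bs, the beta gene with more reads, was at 29.8, 3.75, 13.6, 16.6 and 3.82 CPM in the 5XFAD-labelled libraries and at 114.8, 32.4, 22.3, 37.2 and 46.3 CPM in the cKO-labelled libraries. Replicate 3 of the cKO-labelled libraries lay below replicate 1 of the 5XFAD-labelled libraries, and the other 4 lay above all 5XFAD-labelled libraries. It rose 3.66-fold (log2 fold change 1.87 ± 0.30 SE, edgeR adjusted p = 0.000233, exact permutation p = 0.0159). Hbb-bt, the other beta gene, was at 6.01, 0.704, 5.57, 2.05 and 5.16 CPM against 31.4, 6.81, 5.65, 6.39 and 9.34 CPM. The cKO-labelled libraries were the higher ones apart from replicate 3, but apart from replicate 1 they were close to the highest 5XFAD-labelled values, and the difference did not pass (log2 fold change 1.57 ± 0.40 SE, edgeR adjusted p = 0.0778, exact permutation p = 0.0159).

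**Figure D1:**
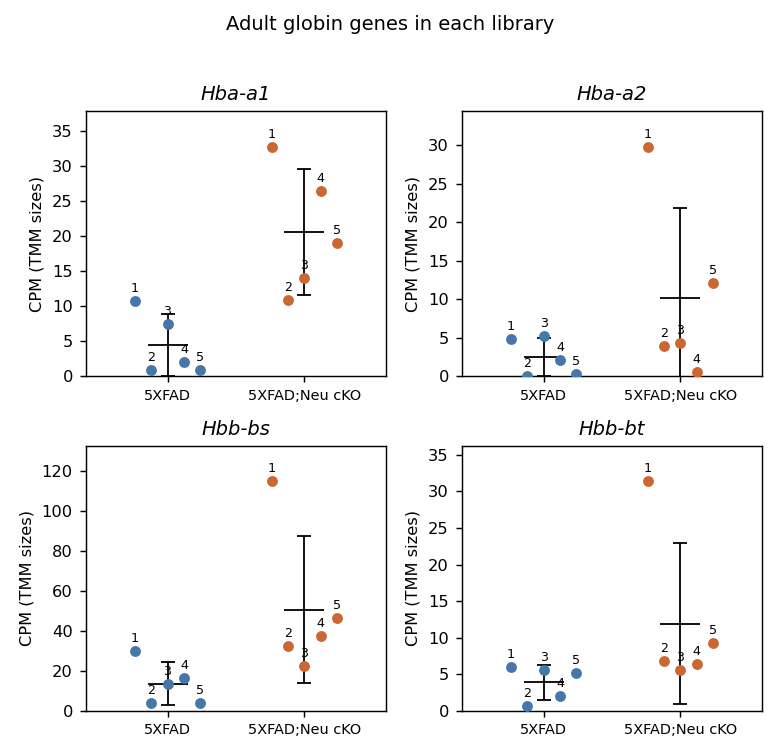
Level of each adult globin gene in CPM (linear axis from 0) in the 5XFAD-labelled and cKO-labelled libraries. Each point is 1 library with its replicate number, the horizontal line is the mean and the bar the SD (n = 5, cut at 0). The groups are apart only for Hba-a1, and cKO-labelled replicate 1 is the highest library in all 4 panels.

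Added as pairs, the alpha genes measured 6.86 ± 6.78 CPM in the 5XFAD-labelled and 30.7 ± 18.9 CPM in the cKO-labelled libraries (mean ± SD, n = 5 each), a log2 fold change of 2.09 ± 0.35 SE (edgeR adjusted p = 0.000353). The beta genes measured 17.4 ± 12.1 and 62.5 ± 47.8 CPM, a log2 fold change of 1.81 ± 0.28 SE (edgeR adjusted p = 0.000115). Exact permutation gave p = 0.0159 for both sums, and in both the groups overlapped. These calls rest on how the spread is estimated. A robust edgeR fit, which lets a gene with a large spread keep it, gave adjusted p-values of 0.476 and 0.462 for the alpha and beta sums, 0.413 for Hba-a1 and 0.482 for Hbb-bs. DESeq2 gave 0.124 for the beta sum and 0.153 for Hbb-bs. It set no adjusted p for the alpha sum, Hba-a1, Hba-a2 or Hbb-bt, whose mean counts fell under its filter. With that filter off, an alternative added after the data were seen, its adjusted p-values were 0.373 for the alpha sum, 0.286 for the beta sum, 0.213 for Hba-a1 and 0.338 for Hbb-bs. Without cKO-labelled replicate 1 the log2 fold changes were 1.68 for the alpha sum, 1.23 for the beta sum, 1.94 for Hba-a1 and 1.33 for Hbb-bs (edgeR adjusted p = 0.0102, 0.00611, 0.00338 and 0.0102). All 4 stayed past the threshold in each of the 10 fits that left out a library.

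Alpha and beta reads were high and low in much the same libraries. For every alpha read there were 1.52 to 2.66 beta reads in the cKO-labelled libraries, and 1.52 to 8.0 in the 5XFAD-labelled libraries, where the highest ratios came from replicates 5 and 2 with only 5 and 4 alpha reads. Fewer windows were unique within the alpha than within the beta pair, and reads with several places were dropped. The ratio is therefore no measure of alpha against beta mRNA. Hbb-bs took 78.5% to 85.3% of the beta reads in the cKO-labelled libraries and 42.5% to 89.0% in the 5XFAD-labelled libraries. Hba-a1 took 52.4% to 98.1% of the alpha reads in the former and 50.0% to 100% in the latter, so the split of the alpha reads varied widely between libraries of a group. All 4 counts of a library share its depth and its input RNA.

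**Figure D2:**
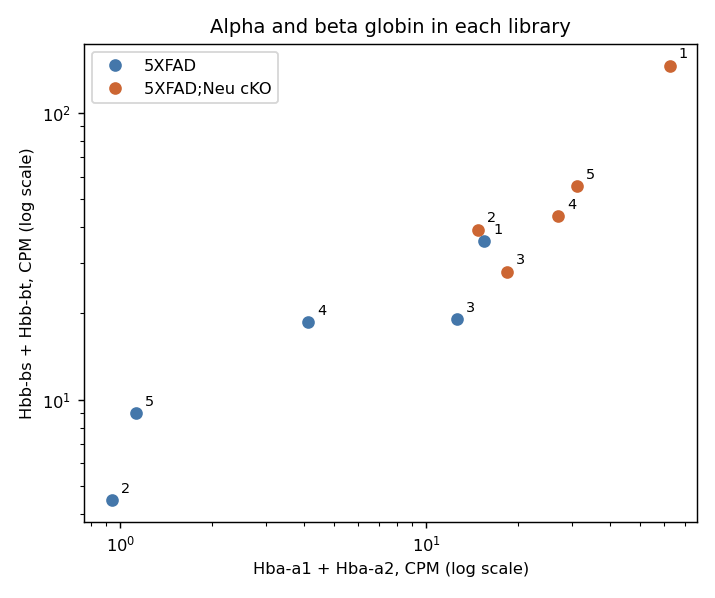
Summed alpha globin CPM (Hba-a1 and Hba-a2, horizontal, log scale) against summed beta globin CPM (Hbb-bs and Hbb-bt, vertical, log scale) in each library, numbered by replicate. The points lie along a rising band from 5XFAD-labelled replicate 2 (0.939 and 4.46 CPM) to cKO-labelled replicate 1 (62.4 and 146.2 CPM), and the groups meet in the middle, where 5XFAD-labelled replicate 1 lies beside cKO-labelled replicate 2.

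Alas2 encodes the red cell form of the first enzyme of heme synthesis and is switched on in red cell precursors. It was barely detected, with 26 reads in all. The 5XFAD-labelled libraries held 0, 4, 0, 0 and 1 reads, and the cKO-labelled libraries 13, 4, 4, 0 and 0, with 13 of the 26 in cKO-labelled replicate 1, the library with the most globin reads. The groups overlapped (log2 fold change 1.65 ± 1.49 SE, edgeR adjusted p = 0.882). Of 30 further genes of red cells and their precursors, 14 passed the count filter, 8 of them higher and 6 lower in the cKO-labelled libraries, and their median log2 fold change was 0.02, beside -0.0006 over all genes tested. edgeR called 0 of the 14, DESeq2 called 0, and 1 had an unadjusted p under 0.05, which is 7.14% of them where 7.95% of all genes did. This was Alad, a widely expressed enzyme of heme synthesis, at 16.8 ± 7.03 CPM in the 5XFAD-labelled and 10.6 ± 5.43 CPM in the cKO-labelled libraries (log2 fold change -0.68 ± 0.27 SE, edgeR adjusted p = 0.462). The highest of the 14 was Hbq1a, an alpha-like globin gene, at 2.05 ± 1.65 SE on the log2 scale (edgeR adjusted p = 0.866). It rested on 2 reads, both in 5XFAD-labelled replicate 5, against 9 and 5 reads in cKO-labelled replicates 3 and 4, and it had 0 reads in cKO-labelled replicate 1, the library with most adult globin reads. Most of those 14, such as Sptb, Ank1, Fech and Cpox, are also expressed outside red cells. Another 15 had 10 reads or fewer over all libraries, and Ahsp was not matched to an identifier. Among them the red cell membrane gene Slc4a1 had 2 reads and the precursor transcription factors Klf1 and Gata1 had 4 and 3. The embryonic globins Hba-x and Hbb-bh1 had 0, which allows up to 3 reads, and Hbb-y had 7.

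The vessel genes differed little as a group. Of the 42 endothelial, mural and matrix members, 23 were higher and 19 lower in the cKO-labelled libraries, and their median log2 fold change was 0.03. edgeR called 0 of the 42 at an adjusted p of 0.05, and 3 had an unadjusted p under 0.05, which is 7.14% of them where 7.95% of all genes did. DESeq2 called 1, Abcb1a, where it called 0.379% of all genes. Counting the red cell genes as well, edgeR called 2 of 47 members, Hba-a1 and Hbb-bs, both higher, where it called 0.218% of all genes in either direction and 0.0571% as higher. Hba-a1 and Abcb1a were the 2 of 47 whose groups did not overlap, as did not 1.3% of all genes. Because the members were chosen with earlier results of these data known, these counts describe them and give no independent support.

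**Figure D3:**
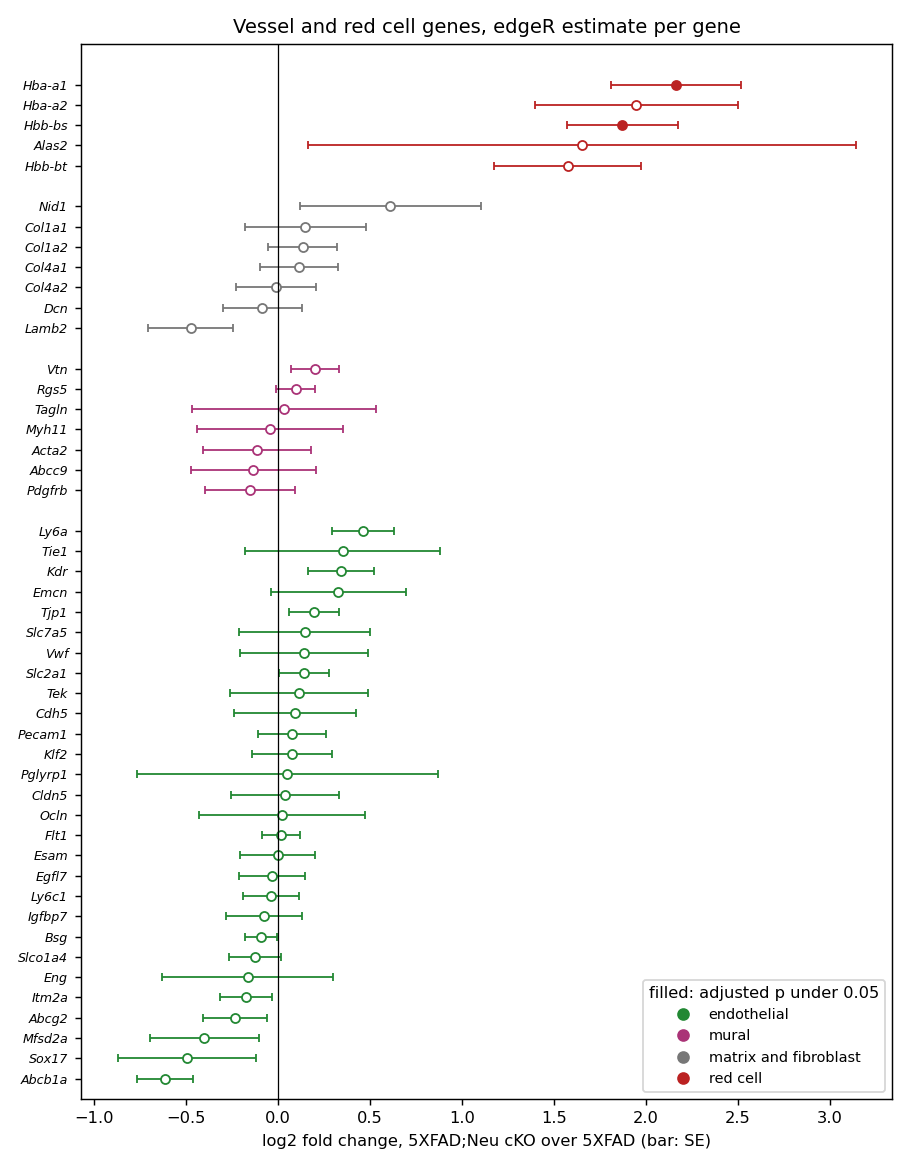
Fitted log2 fold change of each of the 47 genes, cKO-labelled over 5XFAD-labelled libraries, with its SE as a bar, sorted within lists. Filled points (Hba-a1 and Hbb-bs) passed an edgeR adjusted p of 0.05. The 5 red cell genes lie between 1.57 and 2.16, and the 42 vessel genes between -0.62 and 0.61.

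The summed endothelial level was 914, 927, 823, 834 and 792 CPM in 5XFAD-labelled replicates 1 to 5 and 899, 827, 839, 814 and 824 CPM in cKO-labelled replicates 1 to 5. Between the highest and the lowest library this sum changed 1.17-fold, that of the mural genes 1.28-fold and that of the matrix genes 1.44-fold, while the globin sum changed 38.7-fold. The endothelial sum leans on its most abundant genes. Bsg, which other brain cells also make, gave a mean of 232 of 858 CPM in the 5XFAD-labelled and 218 of 841 CPM in the cKO-labelled libraries. Members with fewer reads varied more, such as Cldn5 (3.11-fold) and Emcn (7.41-fold). The library with most globin reads, cKO-labelled replicate 1, had the highest endothelial sum of its group, which was below those of 5XFAD-labelled replicates 1 and 2. The sums of the groups overlapped for all 3 vessel lists.

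**Figure D4:**
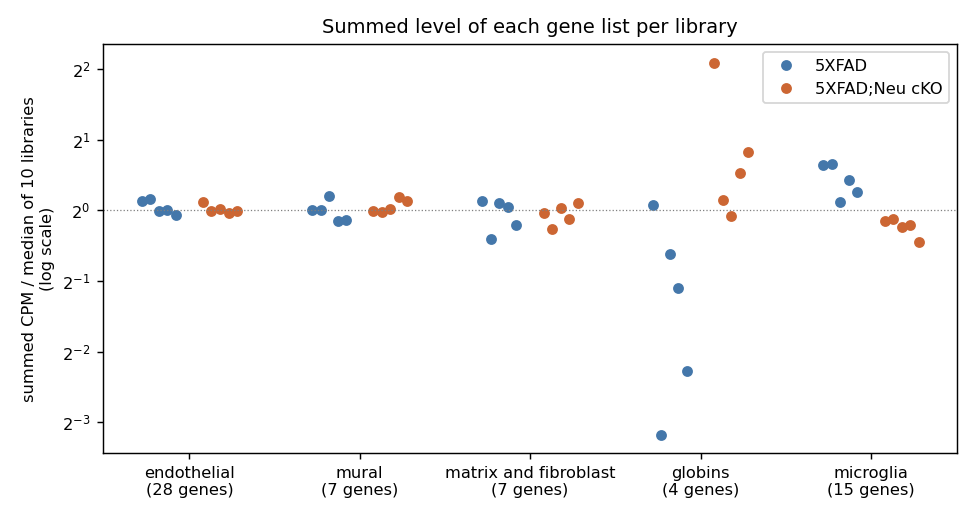
Summed CPM of the endothelial, mural, matrix and fibroblast, globin and microglial genes in each library, divided by the median of the 10 libraries (vertical axis on a log scale, 1 point per library). Endothelial, mural and matrix sums stay near 1 in both groups, globin sums span 38.7-fold, and the microglial sums of the groups do not overlap (551 to 804 CPM against 372 to 467 CPM).

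Among the endothelial genes, the drug efflux pump P-glycoprotein, encoded by Abcb1a (chr5:8710022-8798575, plus strand), stood out. It measured 40.3, 43.9, 30.8, 41.8 and 45.6 CPM in the 5XFAD-labelled libraries and 29.2, 26.1, 21.9, 30.1 and 24.4 CPM in the cKO-labelled libraries. Every cKO-labelled library lay below every 5XFAD-labelled library, the closest pair being replicate 3 of the 5XFAD-labelled and replicate 4 of the cKO-labelled libraries. The log2 fold change was -0.62 ± 0.15 SE, which missed the threshold in edgeR (adjusted p = 0.0651, exact permutation p = 0.00794) and passed it in DESeq2 (adjusted p = 0.0154, or 0.0432 with its filter off). Leaving out single libraries gave edgeR adjusted p-values of 0.0218 to 0.251, under 0.05 in 2 of the 10 fits. In simulated data with changes of 1 on the log2 scale, 14.8% of DESeq2 calls were false, against 5.21% of edgeR calls. Those data were drawn with the spread per gene that edgeR had estimated, and with larger changes than that of Abcb1a. They therefore cannot judge the DESeq2 call of this gene. The short genes Gm42684 and Gm42686 overlap the locus, and the strand setting of the counting is not given in the sources used here.

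The other transporters overlapped between the groups. Abcg2, the second major efflux pump of the barrier, was at 25.5 ± 4.04 CPM in the 5XFAD-labelled and 21.7 ± 1.58 CPM in the cKO-labelled libraries (mean ± SD, n = 5 each here and below), with a log2 fold change of -0.24 ± 0.17 SE (edgeR adjusted p = 0.843). Slco1a4, a carrier of organic anions, was at 56.4 ± 15.5 and 51.6 ± 9.02 CPM. Its log2 fold change of -0.13 ± 0.14 SE turned to 0.04 without 5XFAD-labelled replicate 2, which was highest at 82.1 CPM. Slc2a1, the glucose transporter GLUT1, was at 40.0 ± 5.64 and 44.0 ± 2.45 CPM (log2 fold change 0.14 ± 0.14 SE, edgeR adjusted p = 0.898). The lipid transporter Mfsd2a, which keeps vesicle traffic across the barrier low, was at 11.2 ± 3.11 and 8.39 ± 4.36 CPM. Slc7a5, which takes up large neutral amino acids, was at 6.35 ± 3.49 and 7.06 ± 2.52 CPM. Bsg, the glycoprotein that escorts monocarboxylate transporters to the membrane and the endothelial member with most reads, was at 229.5, 255.5, 224, 236 and 217 CPM in the 5XFAD-labelled libraries and 250.5, 204.5, 228, 211 and 196 CPM in the cKO-labelled libraries. The highest and second highest values came from different groups, and the difference was small (log2 fold change -0.09 ± 0.09 SE, edgeR adjusted p = 0.884). Bsg is also made by many other brain cells.

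**Figure D5:**
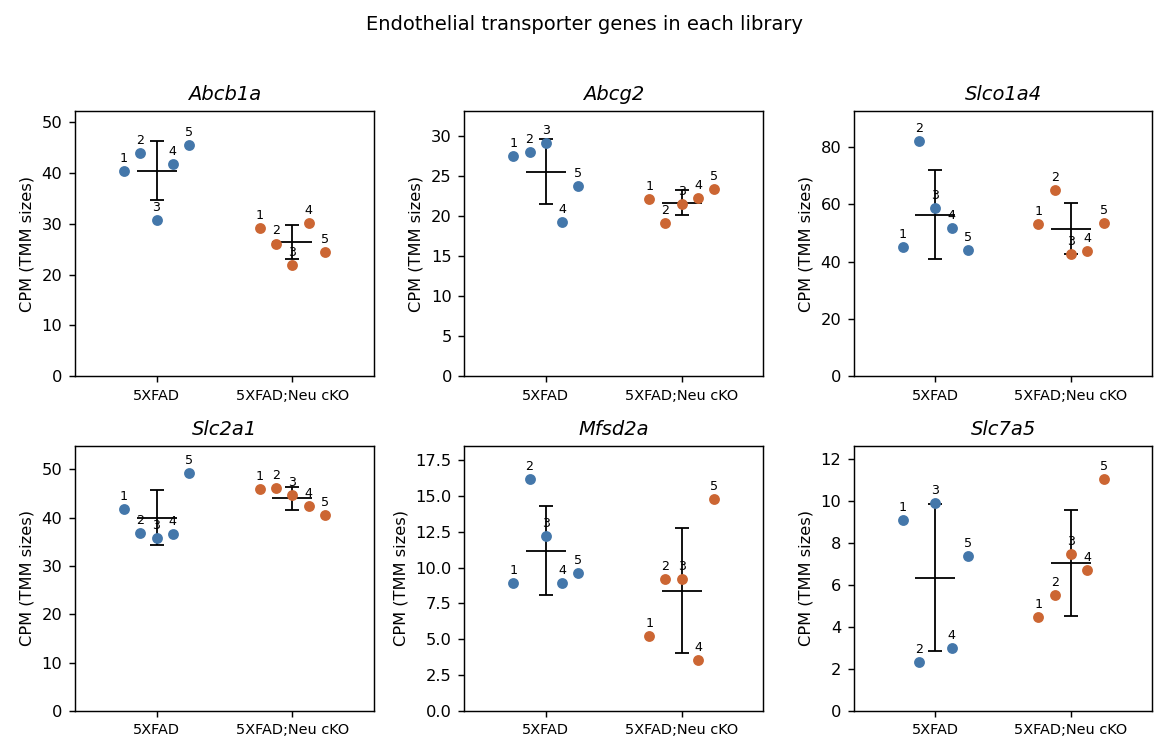
CPM (linear axes from 0) of 6 endothelial transporter genes in each library, numbered by replicate, with the mean and SD (n = 5 per group). The groups are apart for Abcb1a (30.8 to 45.6 against 21.9 to 30.1 CPM) and overlap for Abcg2, Slco1a4, Slc2a1, Mfsd2a and Slc7a5.

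Growth factor receptors on endothelial cells did not pass the test. Kdr, the main receptor for VEGF-A, came closest, at 24.5 ± 5.01 CPM in the 5XFAD-labelled and 31.1 ± 7.97 CPM in the cKO-labelled libraries (log2 fold change 0.34 ± 0.18 SE, edgeR adjusted p = 0.663). Flt1, a receptor that binds and sequesters VEGF, was at 118 ± 20.3 and 119 ± 7.19 CPM. Tek, the receptor for angiopoietins, was at 4.80 ± 1.31 and 5.23 ± 1.01 CPM, and its partner Tie1 at 2.47 ± 1.16 and 3.17 ± 1.61 CPM. Eng, a co-receptor for TGF-beta ligands, was at 4.51 ± 1.66 and 4.06 ± 2.7 CPM, with replicate 3 of the cKO-labelled libraries at 0.394 CPM.

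Genes of endothelial junctions had close means, and none passed. Cldn5, the main claudin of the barrier, was at 9.64 ± 4.62 and 9.93 ± 3.24 CPM, Ocln at 3.82 ± 1.39 and 3.87 ± 1.71 CPM, and the adaptor Tjp1 (ZO-1) at 41.2 ± 6.81 and 47.3 ± 3.62 CPM (log2 fold change of Tjp1 0.19 ± 0.14 SE, edgeR adjusted p = 0.822). The adhesion molecules of the cell contacts were as close: Cdh5 (VE-cadherin) was at 6.41 ± 2.51 and 6.86 ± 0.66 CPM, Pecam1 at 22.5 ± 6.33 and 23.6 ± 4.16 CPM, and Esam at 16.1 ± 2.10 and 16.1 ± 1.64 CPM. Pecam1 was highest in 5XFAD-labelled replicate 2, at 33.8 CPM, and none of these 6 had an unadjusted p under 0.05.

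Ly6a (Sca-1), a surface protein of endothelial cells in mice, was the one endothelial gene higher at an unadjusted p under 0.05. It measured 21.9, 21.8, 23.8, 16.8 and 23.1 CPM in the 5XFAD-labelled libraries and 30.1, 31.6, 29.8, 33.8 and 22.8 CPM in the cKO-labelled libraries. Replicate 5 of the cKO-labelled libraries fell within the 5XFAD-labelled range and the other 4 lay above it, a difference that was lost after adjustment (log2 fold change 0.46 ± 0.17 SE, edgeR adjusted p = 0.436, exact permutation p = 0.0238). Its relative Ly6c1 was at 35.0 ± 6.29 and 34.0 ± 5.88 CPM. Other surface and secreted products of endothelial cells did not pass: Emcn was at 6.47 ± 4.05 and 8.05 ± 2.83 CPM, Vwf, which binds platelets, at 5.80 ± 1.36 and 6.42 ± 2.24 CPM, and Itm2a at 43.2 ± 4.88 and 38.2 ± 5.20 CPM. Egfl7 was at 24.1 ± 6.94 and 23.4 ± 1.43 CPM, Igfbp7 at 22.5 ± 8.76 and 21.5 ± 5.29 CPM, and Pglyrp1, with 71 reads in all, at 1.29 ± 1.26 and 1.32 ± 0.472 CPM. The transcription factors were wide in their spread, with Sox17, which sets arterial identity, at 7.38 ± 4.48 and 5.21 ± 1.87 CPM and the flow-induced Klf2 at 24.8 ± 11.4 and 26.1 ± 8.17 CPM. Egfl7 and Igfbp7 overlap the genes Agpat2 and Polr2b on the other strand. Further members also overlap a gene on the other strand, among them Eng (Fpgs), Klf2 (Eps15l1), Pglyrp1 (Ccdc61), Acta2 (Stambpl1), Tagln (Pcsk7) and Alas2 (Apex2).

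Mural genes did not pass either. Of 7, 3 were higher and 4 lower, and the median of -0.04 on the log2 scale changed sign under other settings. Rgs5, a regulator of G protein signalling and the mural member with most reads, was at 88.6, 77.4, 79.5, 73.1 and 79.2 CPM in the 5XFAD-labelled libraries and 82.8, 88.5, 80.6, 83.6 and 89.1 CPM in the cKO-labelled libraries. All cKO-labelled libraries lay above 4 of the 5 5XFAD-labelled libraries, with a difference of 0.09 ± 0.10 SE on the log2 scale (edgeR adjusted p = 0.921). Vtn, which pericytes secrete, was at 42.0 ± 5.07 and 48.3 ± 2.94 CPM (log2 fold change 0.20 ± 0.13 SE, edgeR adjusted p = 0.80, unadjusted exact permutation p = 0.0238). The pericyte receptor Pdgfrb was at 12.8 ± 3.64 and 11.6 ± 1.98 CPM and the potassium channel subunit Abcc9 at 6.79 ± 2.32 and 6.09 ± 1.68 CPM. The contractile genes of smooth muscle varied most between libraries of a group: Acta2 was at 8.20 to 23.6 CPM in the 5XFAD-labelled and 5.05 to 23.7 CPM in the cKO-labelled libraries, Tagln at 0.224 to 5.98 and 2.73 to 4.46 CPM, and Myh11 at 2.61 to 10.2 and 3.02 to 6.73 CPM.

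Among basement membrane and fibroblast genes, Lamb2 (laminin beta-2) had the one unadjusted p under 0.05. It measured 18.4, 16.2, 15.2, 16.8 and 13.0 CPM in the 5XFAD-labelled libraries and 13.3, 7.36, 10.2, 10.4 and 15.8 CPM in the cKO-labelled libraries. Replicates 1 and 5 of the latter lay within the 5XFAD-labelled range, and the difference was lost after adjustment (log2 fold change -0.48 ± 0.23 SE, edgeR adjusted p = 0.616, exact permutation p = 0.0397). The collagen IV chains Col4a1 and Col4a2 were at 17.5 ± 4.15 and 18.9 ± 5.35 CPM, and at 15.0 ± 2.81 and 15.0 ± 2.54 CPM. The 2 genes overlap in opposite directions at their starts. Nid1, which links laminin to collagen IV, was at 2.76 ± 1.56 and 4.30 ± 2.85 CPM. Of the fibroblast genes, Col1a2, with most reads in this list, was at 21.1, 13.8, 24.2, 24.4 and 18.4 CPM and at 25.2, 18.4, 23.2, 19.7 and 25.7 CPM. The ranges overlapped (log2 fold change 0.13 ± 0.19 SE, edgeR adjusted p = 0.951). Col1a1 was at 6.34 ± 1.13 and 7.06 ± 2.57 CPM, and the proteoglycan Dcn at 17.5 ± 4.91 and 16.6 ± 3.51 CPM.

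Further genes of the same pathways gave few calls. Of 42 genes of vascular signalling (VEGF, angiopoietin, Notch, Wnt and sphingosine ligands, receptors and endothelial transcription factors), 41 passed the count filter, 19 were higher and 22 lower, and the median log2 fold change was -0.06. edgeR called 0 and DESeq2 0, and 3 had an unadjusted p under 0.05, which is 7.32% of them where 7.95% of all genes did. These were Pdgfb, the ligand that recruits pericytes (19.7 ± 7.38 and 26.6 ± 7.63 CPM), the endothelial factor Sox18 (2.31 ± 1.81 and 4.94 ± 1.76 CPM) and Klf4, a flow-responsive factor (17.9 ± 5.31 and 11.6 ± 3.97 CPM). Of 35 genes of barrier junctions, transporters and vesicles, 34 passed the filter, 14 were higher and 20 lower, with a median of -0.08. edgeR called 0 and DESeq2 0 of these, and the 4 with an unadjusted p under 0.05 all had lower means in the cKO-labelled libraries. They are 11.8% of the 34, where 7.95% of all genes had such a p in either direction.

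Of those, F11r (JAM-A), a junction molecule, was at 6.95 ± 1.95 and 3.27 ± 1.34 CPM (log2 fold change -1.07 ± 0.39 SE, edgeR adjusted p = 0.421), and its relative Jam2 at 17.1 ± 4.82 and 12.4 ± 2.31 CPM (-0.46 ± 0.23 SE on the log2 scale, edgeR adjusted p = 0.628). Cavin1, a coat protein of caveolae, did not overlap between the groups, with 19.1 to 28.4 CPM in the 5XFAD-labelled and 15.1 to 18.7 CPM in the cKO-labelled libraries (log2 fold change -0.39 ± 0.19 SE, edgeR adjusted p = 0.614, exact permutation p = 0.00794). Cavin1 was the 1 gene of its list whose groups did not overlap, as did not 1.3% of all genes. None of these 3 genes is expressed by endothelial cells alone.

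Of 30 further mural, smooth muscle and perivascular fibroblast genes, all passed the filter, 17 were higher and 13 lower, and the median on the log2 scale was 0.06. edgeR called 1, where it called 0.218% of all genes, and 2 had an unadjusted p under 0.05, which is 6.67% beside 7.95% of all genes. Sparc, a secreted matrix protein that is also expressed by microglia, fell from 257 ± 52.6 to 171 ± 17.1 CPM (log2 fold change -0.59 ± 0.10 SE, edgeR adjusted p = 0.000384). Its groups did not overlap, as did not those of 1.3% of all genes. Lama5, the laminin alpha-5 chain of the vessel basement membrane, was at 1.31 ± 0.854 and 3.14 ± 2.28 CPM (log2 fold change 1.28 ± 0.64 SE, edgeR adjusted p = 0.628).

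Markers of other cells were read beside these results. The 15 microglial markers were all lower in the cKO-labelled libraries. Of them, edgeR called 7, and 13 had an unadjusted p under 0.05, where 0.218% and 7.95% of all genes did. Their summed level was 551 to 804 CPM in the 5XFAD-labelled and 372 to 467 CPM in the cKO-labelled libraries, without overlap. The means of Abcb1a, Sparc, F11r, Jam2, Cavin1, Lamb2, Klf4 and Alad lay on the same side. Those of Ly6a, Pdgfb, Sox18, Lama5 and the globins lay on the other. The part of the microglial difference in any of these results was not tested. Of 10 astrocyte markers 9 were lower, 1, Gfap, passed, and 4 had an unadjusted p under 0.05. All 10 oligodendrocyte markers were lower, 1, Mal, passed, and 6 had an unadjusted p under 0.05. Of 10 neuronal markers 5 were higher, with 0 past the threshold in edgeR, 1 in DESeq2 and 3 at an unadjusted p under 0.05. Most markers of other blood cells had too few reads to be tested. Of 18 markers of white cells and platelets 12 had 10 reads or fewer, among them 5 with 0 reads. The 6 tested were all lower in the cKO-labelled libraries, summing to 11 to 23.5 CPM against 7.61 to 13.3 CPM. Of these, 0 passed the threshold in edgeR and DESeq2, and 1, Ptprc, had an unadjusted edgeR p under 0.05. The part of the microglial difference in these 6 was not tested. Choroid plexus, a vessel-rich tissue that can come along with cortex, gave summed marker levels of 46.2 to 91.3 CPM and 18.0 to 148.5 CPM, highest in cKO-labelled replicate 5 and at 49.0 CPM in replicate 1, the library with most globin reads. How completely each brain was rinsed of blood is not given in the sources used here.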

How the data were processed

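RNA of 10 cortical samples was sequenced with the QuantSeq 3′ FWD kit (76-base single reads). The authors trimmed reads with bbduk, aligned them to GRCm39 with STAR 2.7.3a and assigned them to genes with htseq-count (HTSeq 0.9.1 in the submitters' processing notes, another version in the methods), and the deposited values are these raw read counts. Rows of unassigned reads were left out. Reads on no gene were 31.3% to 39.9% of the reads that lay on a gene, on none or ambiguously between genes. The row of alignments that were not unique held 15591048 to 23163314 entries per library and is not part of that share. Symbols and places came from GENCODE for GRCm39 and named 52610 of 53700 identifiers.

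Genes with a total over 10 were tested with edgeR 4.0.16 under R 4.3.3 (TMM, quasi-likelihood test, group as the only term, Benjamini-Hochberg over 19268 genes, threshold 0.05). The SE is the log2 fold change divided by the root of the F value. A common biological coefficient of variation of 0.281 was estimated. For single genes the groups were also compared by exact two-sided permutation of log2 CPM (prior count 0.5, 252 relabellings, smallest p 0.00794). Permutation p-values are not adjusted for the number of genes. On simulated data for this comparison with 18596 genes, edgeR recovered 45.5% of genes changed by 1 on the log2 scale. With 18587 genes, it recovered 68.5% of those changed by 2, and 5.21% and 8.05% of its calls were false. DESeq2 recovered 49% and 68.5% in the same data, with 14.8% and 13.3% of its calls false. The simulated counts were drawn with the spread per gene that edgeR had estimated, so the tools were not compared on equal terms. Alternatives were DESeq2 1.42.0, its size factors, other count filters, a robust fit, mitochondrial or hemoglobin genes left out, a replicate block and each library left out.

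The members and lists were chosen with earlier results of these data known. The genes named are all 47 members, Mylip and list genes with an unadjusted p under 0.05. A list gene that this rule would name is not reported here. Values per library are given for members with an unadjusted p under 0.05, for red cell genes and for the gene with most reads in each other list. Genes named beyond that rule (Hbq1a, Sptb, Ank1, Fech, Cpox, the low-count red cell genes) and the markers Gfap, Mal and Ptprc were picked after their values were seen. At these depths genes near 1 CPM rest on few reads, and counting error limits them. No 2 libraries of a group agreed within sampling noise (smallest chi-square per degree of freedom 5.70 over 20 pairs).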

Additional observations from a re-analysis of the deposited data

Results flagged for a closer look

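In 9 of 100 sets of 5 libraries checked (47 genes, Mylip and 2 globin sums in both groups), 1 library stood apart from the other 4, its gap to the nearest one being over 0.71 of the whole range. For independent, normally distributed values about 1 in 20 such sets would be flagged. CPM that rest on few reads need not be so distributed, and the globin sums reuse the reads of their genes. The rate for these data was not measured. In cKO-labelled replicate 1, Hbb-bs was at 114.8 CPM (next 46.3), Hbb-bt at 31.4 CPM (next 9.34) and their sum at 146.2 CPM (next 55.6). These 3 values share their reads. In 5XFAD-labelled replicate 2, the endothelial genes Pecam1, Egfl7 and Pglyrp1 were at 33.8 CPM (next 20.2), 36.1 CPM (next 24.1) and 3.52 CPM (next 0.969), and Alas2 was at 0.939 CPM (next 0.224), on 4 reads. The same library had the highest summed endothelial level, 927 CPM, and the fewest globin reads, 23. Myh11 was at 10.2 CPM in 5XFAD-labelled replicate 3 (next 4.46). Ly6a was lowest in 5XFAD-labelled replicate 4, at 16.8 CPM (next 21.8).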

How the results depend on the processing

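The number of genes called over the whole table was 42, and 73 with DESeq2, 103 without a count filter and 112 with a replicate block, and it ran from 26 (without 5XFAD-labelled replicate 2; 27 without cKO-labelled replicate 4 or 5) to 72 (without cKO-labelled replicate 1) when single libraries were left out. Of the 47 members, 2 were called. With DESeq2 it was 1 (Abcb1a), also with its filter off, an alternative added after the data were seen. A robust fit called 0. Without a count filter and with the replicate block 5 were called, which were Abcb1a and the 4 globins, and leaving out single libraries gave 2 to 3. For the summed globins, the log2 fold changes stayed near the main values while the calls were lost with the robust fit (alpha 2.09, beta 1.81, adjusted p = 0.476 and 0.462) and with DESeq2 (beta 1.84, adjusted p = 0.124, and with its filter off alpha 2.16 and beta 1.84, adjusted p = 0.373 and 0.286). The cause was not tested beyond the construction of the robust fit. Both sums were called in all 10 fits that left out a library, with alpha at 1.68 to 2.56 and beta at 1.23 to 2.23. Slco1a4, at -0.13, turned to 0.0389 without 5XFAD-labelled replicate 2, and ran from -0.223 to that value when single libraries were left out. Same-numbered libraries of the groups share only a number (correlations of their deviations -0.06 to 0.02, best with its own number in 0 of 5), and under that block Abcb1a had an adjusted p of 0.0256. Median log2 fold changes of the vessel lists changed sign when single libraries were left out (endothelial -0.07 to 0.04, mural -0.18 to 0.19, matrix -0.01 to 0.19), and the mural median reached 0.07 under other settings. With 4 to 334 alpha reads per library, the depth limits the single globin genes most.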
